A study of Mus musculus with 7 samples.

Results

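The genes described here are 4 nucleoside transporters, Slc29a1, Slc29a2, Slc29a3 and Slc28a2, chosen by name from the 55357 genes of the deposited TPM table, with no threshold on a measured value. They were read in 7 RNA-seq libraries of CD45+ CD8+ cells, sorted live from tumours grown under the skin for 14 days from implanted MCA205 cells, a mouse fibrosarcoma line. The recipients of 4 libraries were ENT1KO mice (Slc29a1-/-; replicates 11, 12, 14 and 15) and those of 3 libraries were C57Bl/6 WT mice (replicates 1, 2 and 3). The same tumour line was implanted in both genotypes, and the labels describe the deletion as one of the recipients and record no change to the line. The sources used here do not give the part of Slc29a1 that was removed or the age of the mice. The labels do not say that each library is a separate animal, so p-values measure the spread between these libraries, which may be technical.

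Nucleosides such as adenosine and uridine are too polar to cross membranes unaided and enter or leave cells through 2 protein families. The equilibrative transporters (the SLC29 or ENT family) let nucleosides run down their gradient in either direction. ENT1 (Slc29a1) and ENT2 (Slc29a2) act mainly at the plasma membrane, and ENT3 (Slc29a3) sits mainly in lysosomes and other inner membranes. The concentrative transporters (the SLC28 or CNT family) use the sodium gradient to pull nucleosides into the cell, and CNT2 (Slc28a2) prefers purine nucleosides and uridine. Inside the cell, kinases trap the nucleosides as nucleotides, so uptake feeds nucleotide salvage and also removes extracellular adenosine from its receptors.

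All 4 members have an entry in the RefSeq promoter table of build GRCm38.p6. The sequences are shown because Slc28a2 differs from the 3 Slc29 genes at these starts in a feature that the choice of members did not use. Each is the run of 250 bases before an annotated start, written 5′ to 3′ on the gene's strand, and capitals mark each CG dinucleotide. Slc29a1 has 8 annotated starts, of which the outermost is shown.
Slc29a1, chr17:45599619-45599868, minus strand: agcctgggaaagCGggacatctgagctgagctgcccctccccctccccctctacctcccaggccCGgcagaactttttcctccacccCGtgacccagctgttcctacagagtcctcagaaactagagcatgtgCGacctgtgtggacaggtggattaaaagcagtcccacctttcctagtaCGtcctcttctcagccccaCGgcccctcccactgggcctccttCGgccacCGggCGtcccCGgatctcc
Slc29a2, chr19:5023756-5024005, plus strand: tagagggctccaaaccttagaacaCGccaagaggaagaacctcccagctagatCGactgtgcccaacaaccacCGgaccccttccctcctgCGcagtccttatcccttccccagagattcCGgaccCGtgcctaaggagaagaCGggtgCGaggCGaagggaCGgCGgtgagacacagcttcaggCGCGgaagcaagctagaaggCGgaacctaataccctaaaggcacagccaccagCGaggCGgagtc
Slc29a3, chr10:60752783-60753032, minus strand: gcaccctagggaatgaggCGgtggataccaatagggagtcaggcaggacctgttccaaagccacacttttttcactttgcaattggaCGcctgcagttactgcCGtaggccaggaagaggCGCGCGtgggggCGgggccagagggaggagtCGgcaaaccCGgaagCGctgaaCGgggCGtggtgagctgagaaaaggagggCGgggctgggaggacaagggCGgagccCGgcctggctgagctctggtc
Slc28a2, chr2:122426185-122426434, plus strand: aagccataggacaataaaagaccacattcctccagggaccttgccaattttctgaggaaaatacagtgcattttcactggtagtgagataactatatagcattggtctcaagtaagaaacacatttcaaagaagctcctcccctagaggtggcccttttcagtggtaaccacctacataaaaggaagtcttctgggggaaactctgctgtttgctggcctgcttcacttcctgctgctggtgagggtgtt
The runs of Slc29a1, Slc29a2 and Slc29a3 hold 10, 16 and 15 CG dinucleotides, and the run of Slc28a2 holds 0. Over 32851 RefSeq windows of this length the median was 6, and 7.87% held 0. The other starts of Slc29a1 hold 2 to 24. Which start was used in these cells was not measured.

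The libraries held between 18624318 and 19660792 gene-assigned reads, if 1 step of each normalized count column is 1 read. CD8 T cell genes were present in each library, and the libraries differed by genotype in their marker lists, as the plot of these lists shows. The summed level of 14 CD8 T cell identity genes was 9105 to 11210 TPM in ENT1KO and 2857 to 6871 TPM in WT. All 14 passed the test as higher in ENT1KO. Among all tested genes, 27.5% passed as higher and 23.1% as lower. TPM is a level per transcript length that adds up to a fixed total per library. The myeloid, stromal and erythroid lists went the other way. All 15 tested macrophage and monocyte genes were lower in ENT1KO (sum 303.1 to 1681 against 4050 to 6022 TPM), as were 17 of 18 tested fibroblast and tumour genes. The other one, Thy1, is also a T cell surface protein, and without it that list summed to 6.67 to 882.3 TPM in ENT1KO and 4192 to 7915 TPM in WT. Erythroid and platelet genes summed to 58.47 to 252.2 against 747.7 to 2060 TPM. B cell, CD4 T cell and endothelial sums overlapped between the genotypes. The libraries labelled WT replicates 1 and 2 went against their sort: without Thy1 the fibroblast and tumour genes, of cells that a CD45+ CD8+ gate should leave out, summed to 6301 and 7915 TPM there, above the 4459 and 2857 TPM of the identity genes. In WT replicate 3 the order was the reverse, at 4192 and 6871 TPM. The difference of each transporter is therefore also given with each of these 2 libraries left out in turn, which keeps the other one in. Such a fit does not remove the imbalance in this list. WT replicate 3, at 4192 TPM, also stood above every ENT1KO library (at most 882.3 TPM). Within ENT1KO, replicate 14 had the highest macrophage sum and the highest fibroblast and tumour sum, and replicate 15 the lowest of both once Thy1 was left out. No macrophage or fibroblast marker was at 0 in every ENT1KO library, and of the erythroid and platelet list Ppbp was. The part of these cells in the differences below was not tested. In sorted bulk samples, fewer cells of a type and less RNA per cell cannot be told apart.

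**Figure D1:**
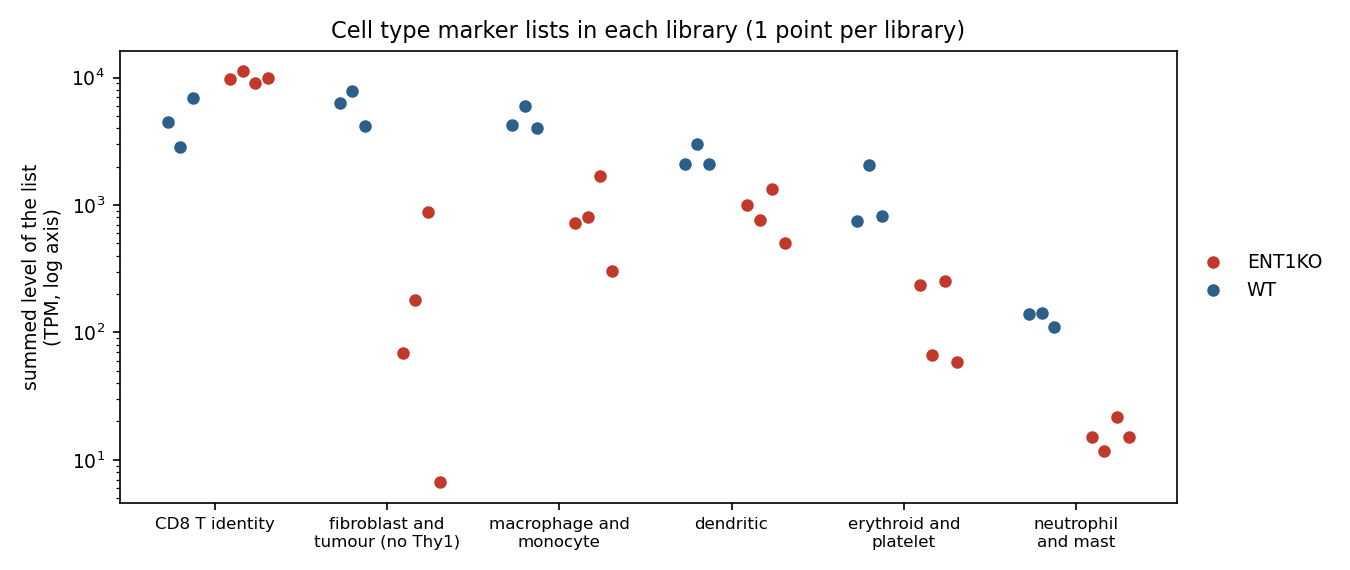
Summed TPM (log axis) of 6 marker lists in each of the 3 WT and 4 ENT1KO libraries, 1 point per library. The identity list is higher in each ENT1KO library (9105 to 11210 TPM) than in any WT library (2857 to 6871 TPM), and the other 5 lists are lower.

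Slc29a1 fell in ENT1KO to 27.9% of its WT mean. The gene encodes ENT1 and lies on chromosome 17 from 45896126 to 45910532 (GRCm39). The WT replicates 1, 2 and 3 held 51.0, 58.9 and 49.7 TPM. In ENT1KO replicates 11, 12, 14 and 15 it was 13.6, 13.2, 17.6 and 15 TPM. The highest ENT1KO library lay far under the lowest WT library, and transcript was present in each ENT1KO library. Of all tested genes 55.2% had groups that did not overlap, 30.3% with ENT1KO above and 24.9% with ENT1KO below. The means were 14.8 ± 2.001 TPM (SD, n = 4) and 53.2 ± 4.94 TPM (SD, n = 3). On log2(TPM + 1), a scale that understates the change of low genes, ENT1KO minus WT was -1.78 (95% confidence interval -2.07 to -1.49; limma-trend adjusted p = 0.00121 over all genes). Of the 13798 genes tested, 50.6% passed this adjusted p of 0.05, 27.5% as higher (3800) and 23.1% as lower (3182), and on normalized counts the split was 2894 higher and 3859 lower. An exact permutation test on this gene alone (two-sided, 35 arrangements) gave p = 0.0286, the smallest that 4 against 3 allows. The authors' deposited table lists a log2 fold change of -1.87 (standard error 0.159, adjusted p = 7.65e-28), and 42.3% of the 18878 genes with an adjusted p there were under 0.05, 16.5% as higher and 25.8% as lower.

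Within ENT1KO, Slc29a1 spanned only 13.2 to 17.6 TPM. The order of its libraries there was not their order in the macrophage or the fibroblast and tumour sums. What that order owes to cells of these lists was not tested. Replicate 14 was the highest in Slc29a1 and in the fibroblast and macrophage sums. Replicate 15, the next highest in Slc29a1 at 15 TPM, had the lowest fibroblast and tumour sum (6.67 TPM without Thy1) and the lowest macrophage sum (303.1 TPM). Replicate 12, the lowest in Slc29a1 at 13.2 TPM, stood above it on both lists, at 179.8 and 800.0 TPM. In WT the order was the same in Slc29a1 and in both sums, with replicate 2 the highest and replicate 3 the lowest. Normalized counts, the authors' reads per gene after scaling for depth, were 342.3 to 423.2 in ENT1KO and 1237 to 1606 in WT. Without WT replicate 1 the difference was -1.81 and without WT replicate 2 it was -1.71 (limma adjusted p = 0.0094 and 0.0053). WT replicate 3, at 49.7 TPM, was above each ENT1KO library. It also stood above each of them in the macrophage sum (4050 TPM) and the fibroblast and tumour sum without Thy1 (4192 TPM). This library therefore cannot tell genotype and these cells apart. A fit that also held the macrophage sum gave -1.52, with limma's adjusted p at 0.407. One that held the fibroblast and tumour sum gave -1.13, with limma's adjusted p at 1. One that held the fibroblast and tumour sum without Thy1 gave -1.62, with limma's adjusted p at 0.114. These sums do not overlap between genotypes. The one gene that overlaps Slc29a1 in the deposited table, Gm17080, reached at most 0.17 TPM. None of the 31-base words of Slc29a1 transcripts in GENCODE M21 occurred in transcripts of another gene.

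Slc29a2, which encodes ENT2 (chromosome 19, 5073888 to 5082000), had the lowest level of the 4 genes and was lower still in ENT1KO. WT replicates 1, 2 and 3 held 2.41, 2.86 and 1.74 TPM. ENT1KO replicates 11, 12, 14 and 15 held 1.35, 0.52, 0.94 and 1.52 TPM. The groups did not overlap, but the gap between 1.52 and 1.74 TPM was narrow. ENT1KO averaged 1.08 ± 0.447 TPM (SD, n = 4) and WT 2.34 ± 0.564 TPM (SD, n = 3). Their log2 difference was -0.69 (95% confidence interval -1.23 to -0.16; limma-trend adjusted p = 0.037). By exact permutation, two-sided, p was 0.0571. This call rested on single libraries. It was lost without ENT1KO replicate 12 (limma adjusted p = 0.0813) or 14 (0.0643), and without WT replicate 1 (-0.67, limma adjusted p = 0.104) or 2 (-0.58, limma adjusted p = 0.155). After quantile normalization the difference was -0.29 (limma adjusted p = 0.395). On the normalized counts the groups stood further apart, with 27.45, 22.43, 40.21 and 35.37 in ENT1KO and 76.52, 91.29 and 70.71 in WT. There the difference was -1.34 (limma adjusted p = 0.00769). The authors' deposited table lists -1.34 as well, with an adjusted p of 0.000131.

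Slc29a3, which encodes the lysosomal transporter ENT3 (chromosome 10, 60547851 to 60588573), differed least between the genotypes. WT replicates 1, 2 and 3 lay close together at 15.7, 15.7 and 15.2 TPM. ENT1KO replicates 11, 12, 14 and 15 held 12.5, 12.9, 13.5 and 9.77 TPM. Each ENT1KO library was under each WT library, and replicate 15, the one with the lowest macrophage sum, was the lowest of all. The difference was -0.33 without WT replicate 1 and also without WT replicate 2 (limma adjusted p = 0.13 and 0.14). The means were 12.2 ± 1.65 TPM (SD, n = 4) and 15.5 ± 0.284 TPM (SD, n = 3), and the log2 difference was -0.34 (standard error 0.133), which did not pass (limma-trend adjusted p = 0.0633; exact two-sided permutation p = 0.0571). On normalized counts the gene held 808.3, 838.7, 885.6 and 694.6 against 1137, 1307 and 1106. That scale gave -0.55 and a call (limma adjusted p = 0.00734), and the authors' deposited table gave -0.55 with an adjusted p of 0.000486. The median difference of all tested genes was 0.145 on TPM and 0 on normalized counts. In a fit that also held the macrophage sum the sign turned, to 0.11 (limma adjusted p = 0.869). With the fibroblast and tumour sum in its place the value was 0.05, and 0.03 without Thy1 (limma adjusted p = 1 and 0.941).

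Slc28a2, which encodes the sodium-driven transporter CNT2 (chromosome 2, 122256958 to 122291618), rose in ENT1KO to 2.64 times its WT mean. It held 39.8, 20.4 and 39.7 TPM in WT replicates 1, 2 and 3. In ENT1KO replicates 11, 12, 14 and 15 it held 107, 87.5, 80.3 and 76.9 TPM. The groups did not overlap, and WT replicate 2, the library with the lowest identity sum and the highest fibroblast and macrophage sums, was the lowest. ENT1KO averaged 87.8 ± 13.3 TPM (SD, n = 4) and WT 33.3 ± 11.2 TPM (SD, n = 3). Their log2 difference was 1.42 (95% confidence interval 0.87 to 1.97; limma-trend adjusted p = 0.0028; exact two-sided permutation p = 0.0286). On normalized counts it was 1.39 (limma adjusted p = 0.0044), and the authors' deposited table lists 1.35 (standard error 0.238). The 14 identity genes were also higher in ENT1KO, by 1.17 on average on the same log2 scale. Without WT replicate 1 the difference was 1.58 and without WT replicate 2 it was 1.11 (limma adjusted p = 0.00954 and 0.00556). WT replicate 3, at 39.7 TPM, lay under each ENT1KO library. As it stood above each of them in the macrophage and the fibroblast and tumour sums, it cannot tell genotype and these cells apart. The call for Slc28a2 was lost in fits that also held the macrophage sum (1.22, limma adjusted p = 0.479) or the fibroblast and tumour sum (0.14 with Thy1 and 1.38 without, limma adjusted p = 1 and 0.165).

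Slc28a2 has a close copy 23803 bases downstream, Slc28a2b, and reads can be shared between them. In GENCODE M21 transcripts, 46.3% of the 31-base words of Slc28a2 and 18% of its 100-base words also occurred in the copy. Slc28a2b held 1.54, 0.58 and 1.48 TPM in WT replicates 1, 2 and 3, and 30.7, 1.56, 2.72 and 8.63 TPM in ENT1KO replicates 11, 12, 14 and 15. The ENT1KO libraries ranged so widely that the log2 difference of 1.77 had a standard error of 0.796 and did not pass (limma-trend adjusted p = 0.0963). The authors' deposited table lists 3.08 for it (adjusted p = 0.0128). Slc28a2b made up 22.3% of the TPM of the pair in ENT1KO replicate 11 and 1.75% to 10.1% in the other libraries. Summing the pair, a choice made after the values were seen, gave 98.7 ± 25.8 TPM (SD, n = 4) against 34.5 ± 11.7 TPM (SD, n = 3), or 1.52 on the log2 scale (limma adjusted p = 0.00355). The pair passed the test as Slc28a2 alone did. A gene model that overlaps Slc28a2, Gm14086, reached at most 4.37 TPM.

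**Figure D2:**
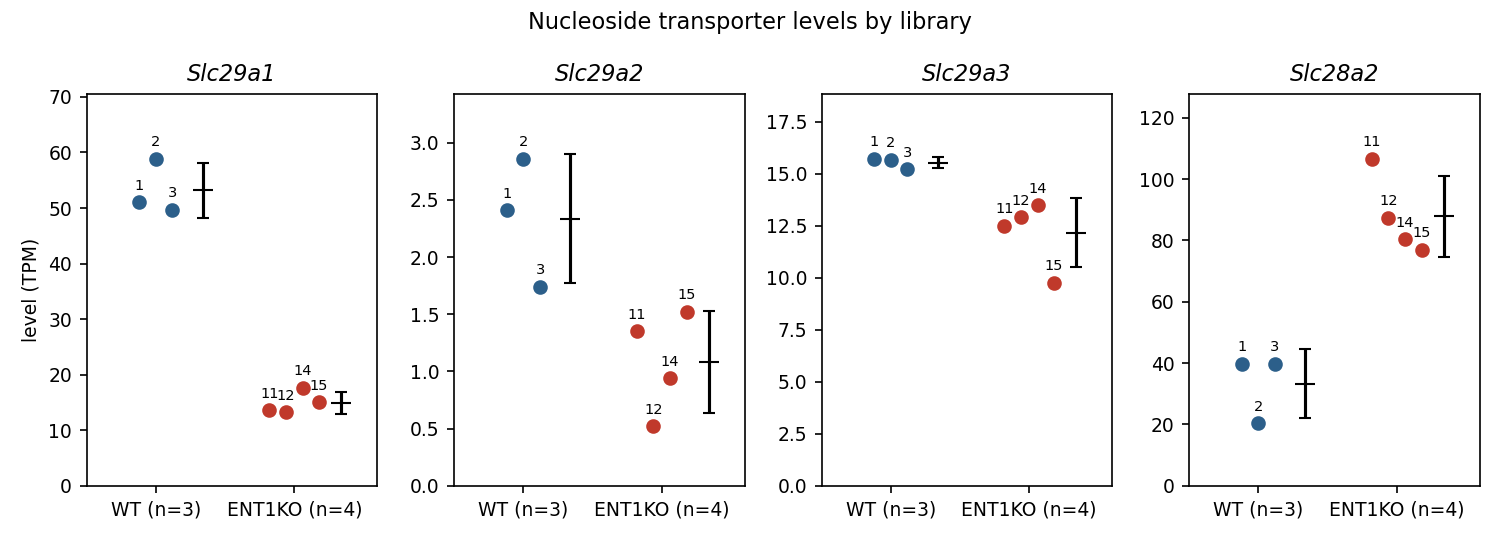
Level in TPM of each transporter gene in each library (points, numbered by replicate) with mean and SD for 3 WT and 4 ENT1KO libraries; each panel has its own axis from 0. Slc29a1 is at 49.7 to 58.9 TPM in WT and 13.2 to 17.6 TPM in ENT1KO, and Slc28a2 at 20.4 to 39.8 TPM in WT and 76.9 to 107 TPM in ENT1KO.

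The order of the levels changed with genotype. In WT, Slc29a1 was the most abundant, followed by Slc28a2, Slc29a3 and Slc29a2, and the ranges of neighbours in this order did not overlap. In ENT1KO, Slc28a2 came first and Slc29a2 last. Between them Slc29a1 (13.2 to 17.6 TPM) and Slc29a3 (9.77 to 13.5 TPM) had overlapping ranges, although Slc29a1 was the higher of both in each of the 4 libraries. The summed TPM of the 4 genes was 103.2 to 134.1 in ENT1KO and 97.79 to 108.9 in WT, so the ranges overlapped. The make-up of that sum did not. Slc29a1 gave 51.3% ± 7.73 of it in WT (SD, n = 3) and 13% ± 2.57 in ENT1KO (SD, n = 4). Slc28a2 gave 31.6% ± 9.28 in WT and 75.5% ± 3.4 in ENT1KO. The 3 equilibrative genes together held 71.1 ± 5.61 TPM in WT and 28.1 ± 2.67 TPM in ENT1KO.

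**Figure D3:**
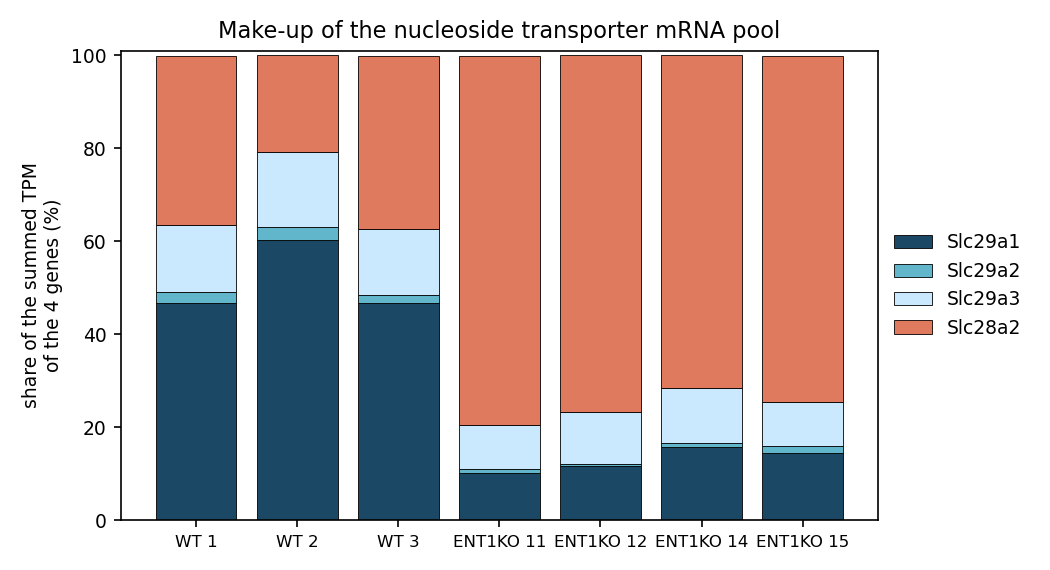
Share of each gene, in percent, in the summed TPM of the 4 transporter genes in each library. Slc29a1 makes up 46.7% to 60.2% of the sum in WT and 10.1% to 15.7% in ENT1KO, and Slc28a2 20.9% to 37.3% and 71.5% to 79.5%.

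The 6 pairs of members were also compared within each library, on the log2 ratio of TPM + 1, in which the added 1 weighs most on the low level of Slc29a2. For Slc29a1 to Slc29a3 the ratio was 0.27 ± 0.247 in ENT1KO (SD, n = 4) and 1.71 ± 0.117 in WT (SD, n = 3). For Slc29a1 to Slc29a2 it was 2.95 ± 0.342 against 4.03 ± 0.155, and for Slc29a1 to Slc28a2 it was -2.48 ± 0.342 against 0.72 ± 0.664. Slc29a1 was thus lower against each of the other 3 members, by 1.44, 1.09 and 3.2 on the log2 scale. Each of these 3 ratios had an exact two-sided permutation p of 0.0286, the smallest that 4 against 3 allows. After Benjamini-Hochberg adjustment over the 6 pairs it was 0.0343. How many pairs of other genes reach it was not computed, and 55.2% of all tested genes had groups that did not overlap. The ratios of Slc29a2 and Slc29a3 to Slc28a2 were lower as well, by 2.12 and 1.76 (exact permutation p = 0.0286, adjusted 0.0343). The remaining pair, Slc29a2 to Slc29a3, differed by -0.36, within the spread of its libraries (exact permutation p = 0.371). The difference for Slc29a1 to Slc29a2 was -0.52 on normalized counts, where it no longer passed (exact permutation, adjusted p = 0.0571), -0.73 with a pseudocount of 0.1 (adjusted p = 0.2) and -1.28 with one of 5.

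Set against the CD8 T cell identity genes of the same library, Slc29a1 was lower in ENT1KO and the levels of Slc28a2 overlapped. Per 1000 TPM of identity genes, Slc29a1 amounted to 1.39, 1.18, 1.93 and 1.51 TPM in ENT1KO replicates 11, 12, 14 and 15. The WT libraries spread from 7.24 TPM in replicate 3 to 11.4 in replicate 1 and 20.6 in replicate 2, all above ENT1KO. The identity list's mean log2 value was then subtracted in each library, which lowers the difference of every gene by 1.17. On that scale Slc29a1 differed by -2.95, Slc29a2 by -1.87 and Slc29a3 by -1.51. A gene with no difference in TPM would lie under 0 there by that same amount, so no test of these values is given. Slc28a2 stood at 7.73 to 10.9 TPM per 1000 in ENT1KO and 5.78 to 8.91 in WT, which overlap. Its difference after the subtraction was 0.25.

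**Figure D4:**
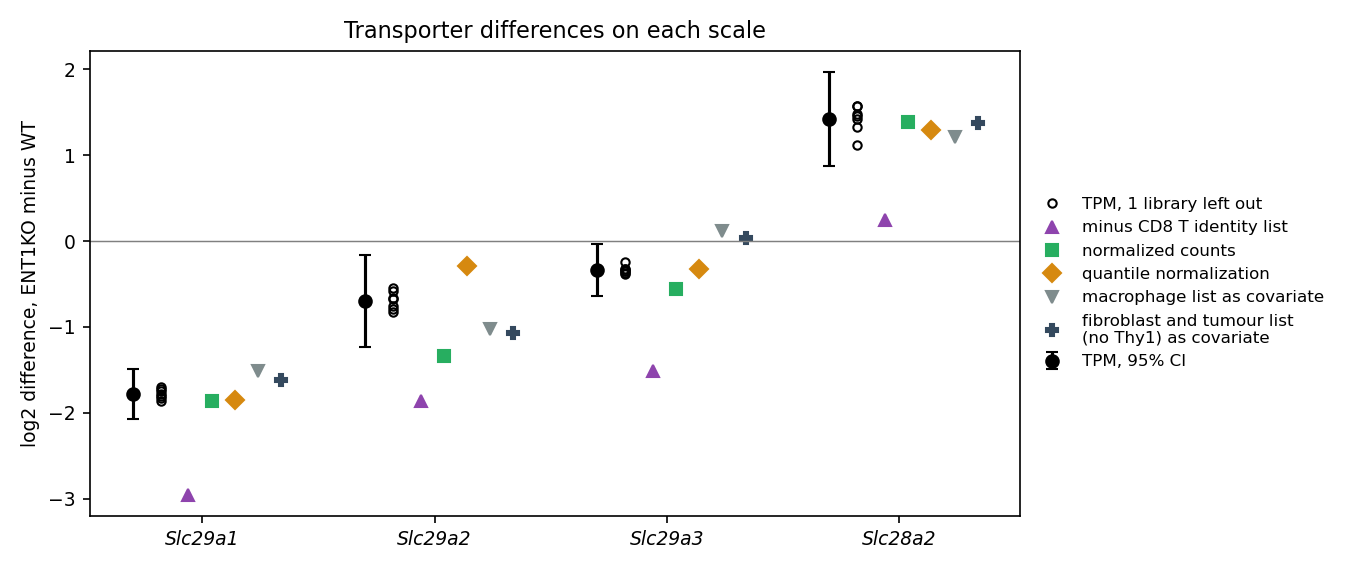
Log2 difference (ENT1KO minus WT) of each transporter gene on TPM with its 95% confidence interval, with 1 library left out, on 3 other scales, and with either of 2 marker lists as a covariate. Slc29a1 is under 0 throughout, Slc29a3 lies between -1.51 and 0.11, and Slc28a2 drops from 1.42 to 0.25 when the CD8 T cell identity list is subtracted.

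The genes whose level followed each member most closely were found by the root mean square distance between centred log2(TPM + 1) profiles over the 7 libraries, among about 9528 tested genes with a mean of at least 5 TPM. Libraries of 1 genotype share their make-up of cells, which enters every such distance. For Slc29a1 the nearest were Cpd (0.108), Nenf (0.123), Ifi30 (0.125), Cmklr1 (0.136) and Dag1 (0.14). Ifi30, for example, was at 48.1 ± 10.4 TPM in ENT1KO and 151 ± 27.8 TPM in WT. For Slc28a2 they were Dennd1c (0.0691), Mycbp2 (0.0827), Tut4 (0.0861), Cntrl (0.0903) and Dock10 (0.0917), and Dennd1c was at 106.0 ± 10.4 against 39.9 ± 12.7 TPM. For Slc29a3 they were Atp2a2, Gabarapl1, Septin2, Elk1 and Fbxo4 (0.0434 to 0.0731), and for Slc29a2 they were Golm2, Idi1, Rab9, Tmco3 and Hs6st1 (0.0953 to 0.132).

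Among 9 further carriers of nucleosides, nucleobases or nucleotides, 6 were tested and 1 was called, beside 50.6% of all tested genes. Slc43a3, an equilibrative carrier of purine nucleobases, fell from 25.2 ± 3.32 TPM (SD, n = 3) to 16.3 ± 0.663 TPM (SD, n = 4; limma-trend adjusted p = 0.00497). The most abundant one not called, Slc25a36, a mitochondrial pyrimidine nucleotide carrier, was at 40.5 ± 14.3 TPM in ENT1KO and 25.4 ± 7.67 TPM in WT. Slc29a4, the remaining equilibrative family member, held 0.34 to 0.72 TPM in ENT1KO and 0.17 to 0.56 TPM in WT. Slc28a1 and Slc28a3, the other concentrative family members, were listed at 0 TPM in each library. The median log2 difference of the 6 tested was 0.19, beside 0.145 for all tested genes.

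The genes that make, break and sense adenosine outside the cell moved in both directions, with 4 of 8 tested called higher and 2 lower, beside 27.5% and 23.1% of all tested genes. Dpp4, the surface protease that anchors adenosine deaminase in some species, rose from 15.5 ± 6.36 to 51.4 ± 12.7 TPM. Adora2a, the adenosine receptor that restrains T cells, rose from 24.5 ± 10.8 to 48.3 ± 10.03 TPM, and its groups overlapped, with WT replicate 3 at 36.9 TPM and ENT1KO replicate 15 at 36.0 TPM. The ectoenzymes Cd38 and Nt5e (CD73, which makes adenosine from AMP) were called higher by 0.62 and 0.38 on the log2 scale. The limma-trend adjusted p was 0.0185 for Cd38 and 0.0443 for Nt5e. In the authors' deposited table Cd38 was at 0.50 (adjusted p = 0.0228). Nt5e was at 0.21 there and did not pass (adjusted p = 0.188). Enpp1, a nucleotide-cleaving ectoenzyme, fell from 35.9 ± 9.39 to 8.31 ± 1.65 TPM, and the receptor Adora2b fell from 2.29 ± 0.383 to 0.448 ± 0.128 TPM. Entpd1 (CD39), the most abundant one not called, was at 60.4 ± 16.4 against 49.9 ± 3.55 TPM. Once the identity list was subtracted, which lowers each gene by 1.17, Adora2a stood at -0.17, Nt5e at -0.79 and Dpp4 at 0.55.

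Enzymes that act on nucleosides and nucleobases inside the cell were called lower in 8 and higher in 4 of 17 tested, beside 23.1% lower and 27.5% higher among all genes. On normalized counts, where more genes were called lower than higher over the whole table, the 4 lists together had 14 lower and 6 higher, against 12 and 8 on TPM. Cda, which deaminates cytidine, fell from 10.5 ± 3.85 to 0.445 ± 0.699 TPM, and it was listed at 0 in ENT1KO replicates 11 and 15, the 2 with the lowest fibroblast and tumour sums without Thy1. Upp1, a uridine phosphorylase, fell from 42.4 ± 18.3 to 6.17 ± 4.31 TPM. Upp2 and Pnp2 were low in both genotypes, with means of 1.84 and 1.87 TPM in WT and 0.365 and 0.475 TPM in ENT1KO. They fell by 1.07 and 0.95 on the log2 scale. Adk, the adenosine kinase that traps adenosine after uptake, fell from 24.7 ± 3.22 to 15.4 ± 1.89 TPM; it is named although others of the list moved further. Samhd1, which degrades deoxynucleotides, rose from 181.8 ± 32.3 to 312.9 ± 29.5 TPM. The kinases Uckl1, Dguok and Tk2 rose by 0.74, 0.69 and 0.57. After the identity list was subtracted, which lowers each gene by 1.17, Samhd1 stood at -0.385. Uckl1, Dguok and Tk2 stood at -0.431, -0.483 and -0.602 on that scale. Hprt, the purine salvage enzyme, was at 161.6 ± 8.33 against 135.0 ± 14.6 TPM and did not pass. In the de novo pyrimidine list 1 of 5 was called, Ctps (CTP synthase), which fell from 32.8 ± 2.98 to 21.2 ± 4.97 TPM. Ctps2 was at 76.9 ± 7.52 against 68.5 ± 4.27 TPM. Over the 4 lists 20 of 36 tested genes, or 55.6%, were called, beside 50.6% of all genes. Without WT replicate 2 the count was 13, and with either marker sum as a covariate it was 0 in limma (9 at an unadjusted p under 0.05 with the macrophage sum, and 0 with the fibroblast and tumour sum or 12 without Thy1).

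**Figure D5:**
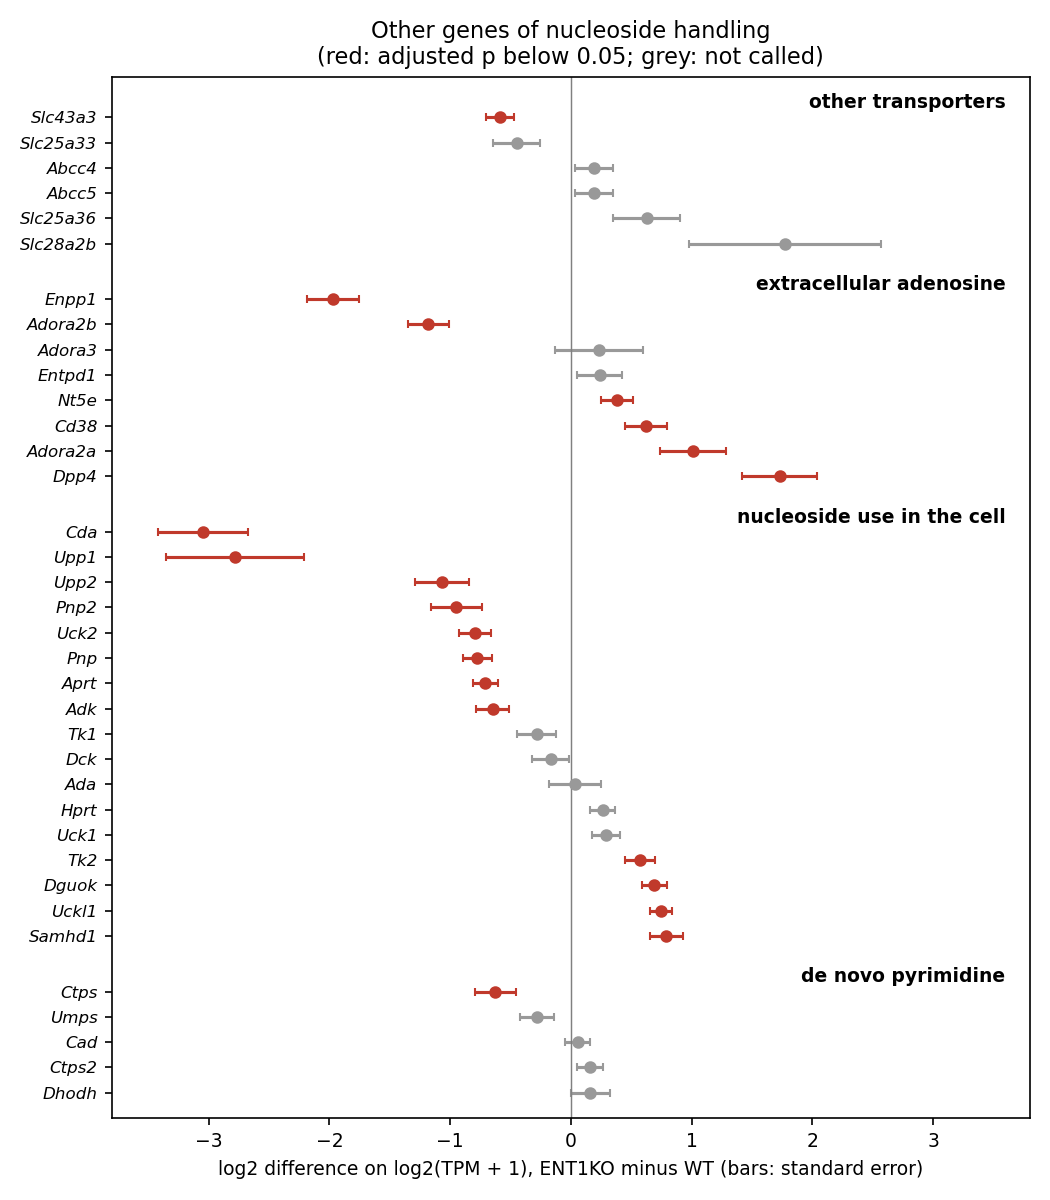
Log2 difference on log2(TPM + 1), ENT1KO minus WT, with its standard error, for the 36 tested genes of the 4 other nucleoside lists; red points passed a limma-trend adjusted p of 0.05. The points run from -3.05 for Cda to 1.77 for Slc28a2b, which did not pass.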

How the data were processed

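Poly(A)-selected libraries from 75 ng of RNA, 7 in all, were described in 2 deposited tables. The first holds TPM, computed by the authors. The second holds the signal called normalized counts here, which the values show to be reads per gene after 1 scaling per sample by the authors. It also holds log2 fold changes and group means, p-values, and the score behind them, all deposited as the authors computed them. The tools in the submitters' processing notes, given without roles, are STAR 2.7.1a, RSEM, Trimmomatic 0.35 and 0.38, and DESeq2 1.30.1 besides DESeq, with GRCm39 as the build. The sources used here do not give the annotation release. Gene coordinates are those of the deposited tables, and promoter sequences are RefSeq's, of GRCm38.p6.

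Within a tolerance of 0.01, 100% of normalized counts fell on whole steps of their column's lowest value above 0. If 1 step is 1 read, this gives the read totals. In WT replicates 1 and 3 the step was so near 1 (0.994 and 0.996) that whole reads could not be established by the stricter criterion used here, so no count test was run and no counting intervals were computed. The filter of 1 TPM or more in 3 or more samples left 13798 genes. They were fitted by limma-trend (limma 3.58.1 in R 4.3.3, robust empirical Bayes) on log2(TPM + 1) with a genotype term alone, and p-values were adjusted over all of them by Benjamini-Hochberg. Exact permutation tests, two-sided and on the absolute difference of means, served for single values. The fit was tested on simulated data. Figures used matplotlib 3.10.9 in Python 3.11.15. The transporters, gene lists and tests were chosen with earlier results of these data known. Named genes are the 4 transporters, the 5 nearest profiles to each, and in each nucleoside list up to 4 called genes a direction and the most abundant gene not called; Adk, Slc28a2b, Slc29a4, Slc28a1 and Slc28a3 were added after their values were seen.

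Of the other marker lists, 1 of 3 CD4 T cell genes was called higher and 2 lower, and 2 of 3 B cell genes higher and 1 lower. Of 6 NK cell genes 1 was higher and 2 lower, and of 11 dendritic genes 1 was higher and 5 lower. Of 6 endothelial genes 1 was higher and 5 lower. All 6 of 6 erythroid and platelet genes and 7 of 8 neutrophil and mast cell genes were lower. Among all tested genes, 27.5% were called higher and 23.1% lower.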

Additional observations from a re-analysis of the deposited data

Results flagged for a closer look

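Of the 40 transporter and nucleoside list genes tested, 1 had an ENT1KO library that stood apart from the other 3 by Dixon's test, which chance gives in about 1 in 20 groups. Cad, the enzyme that starts pyrimidine synthesis, was at 30.1 TPM in ENT1KO replicate 14 and between 24.6 and 25.2 TPM in the other ENT1KO libraries. No ENT1KO library stood apart in this way for a transporter. The WT groups, of 3 libraries each, were not checked. For Slc28a2, WT replicate 2 was at 20.4 TPM and WT replicates 1 and 3 at 39.8 and 39.7 TPM.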

How the results depend on the processing

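Over its 18 alternatives Slc29a1 kept its sign in all 18. The alternative with the identity list subtracted (-2.95) lowers every gene by 1.17, so it is not read as a call for any transporter. Of the others, Slc29a1 was called in all but the 3 fits with a marker list as covariate. These gave -1.52 (macrophage), -1.13 (fibroblast and tumour) and -1.62 (the latter without Thy1, added after the data were seen). Slc28a2 kept its sign in all 19 of its alternatives and lost its call with the same 3 covariates, at 1.22, 0.14 and 1.38. With the identity list subtracted it stood at 0.25. Slc29a2 kept its sign in 17 of 17 but lost its call with the covariates (-1.02, -0.87 and -1.07), after quantile normalization (-0.29), with a pseudocount of 0.1 (-1.11, limma adjusted p = 0.0573) and without a filter beyond a value above 0 (-0.69, limma adjusted p = 0.0619). With 1 library left out it lay between -0.83 and -0.55, called in 3 of 7. The filter of 5 TPM leaves Slc29a2 out. Slc29a3 turned sign with the covariates (0.11, 0.0512 and 0.0314). It passed on normalized counts (-0.55) and with array weights (-0.33, limma adjusted p = 0.0442). With the identity list subtracted it stood at -1.51, on the scale that lowers every gene by 1.17. All libraries left out in turn kept the sign of each transporter. In limma no gene passed with the macrophage or the fibroblast and tumour covariate (1433 and 268 at an unadjusted p under 0.05), and without Thy1 3 passed; of the nucleoside lists 0 passed in all 3 fits (9, 0 and 12 unadjusted). With 1 library left out, 4207 to 6482 genes and 13 to 21 list genes passed, the lowest of both without WT replicate 2. On normalized counts 2894 genes were higher and 3859 lower, against 3800 and 3182 on TPM, and with a value above 0 in 1 sample as the filter 3116 and 3847. With a library left out the exact test of a ratio cannot go below 0.1 (3 against 3) or 0.0667 (4 against 2). The ratio differences then ranged from -3.40 to -2.82 for Slc29a1 to Slc28a2, -1.19 to -0.98 for Slc29a1 to Slc29a2, -1.54 to -1.36 for Slc29a1 to Slc29a3, -2.41 to -1.69 for Slc29a2 to Slc28a2 and -1.93 to -1.45 for Slc29a3 to Slc28a2. Slc29a1 to Slc29a2 was -0.52 on normalized counts and -0.73 with a pseudocount of 0.1. The cause of these changes was not tested. No paired analysis was possible because the genotypes share no replicate number.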

Other observations

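The normalized count of a gene divided by its TPM rises with the length of the transcripts to which its reads were assigned. Relative to the median of 9891 genes in the same library, this value for Slc29a1 was 0.871, 0.828, 0.781 and 0.796 in ENT1KO replicates 11, 12, 14 and 15 and 0.731, 0.713 and 0.764 in WT replicates 1, 2 and 3. The groups did not overlap, and 11.6% of genes had a difference at least as large. For Slc28a2 it was 1.01 ± 0.0368 (SD, n = 4) and 0.932 ± 0.0243 (SD, n = 3), also without overlap and in the same direction, and 19.4% of genes had a difference at least as large. For Slc29a3 it was 2.15 ± 0.0756 (SD, n = 4) and 2.17 ± 0.00949 (SD, n = 3). For Slc29a2 it ranged from 0.669 in ENT1KO replicate 11 to 1.39 in ENT1KO replicate 14, the widest range of the 4 transporters. These values were chosen for display after the data were seen and carry no test.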
